A study of Rattus norvegicus with 16 samples.

Results

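The genes described here encode 10 positive acute-phase proteins, the plasma proteins that the liver secretes in larger amounts during inflammation. They were chosen by name, as the symbols Lbp, Crp, Orm1, Hp, Hpx, Cp, A2m, Serpina3n, Itih3 and Itih4, and all 10 were found among the 17055 gene symbols counted in every library. In the acute-phase response, macrophages that meet microbes or damaged tissue release interleukin-1, tumor necrosis factor and interleukin-6. Hepatocytes carry the receptors for these cytokines, and the signal passes through Janus kinases to Stat3 and through NF-kB, which act with the C/EBP factors on the promoters of acute-phase genes. The proteins then leave the liver for the blood, where they bind bacterial lipids, take up free hemoglobin, heme and copper, carry drugs and steroids, and hold proteases in check.

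Liver RNA came from 48 male Sprague-Dawley rats aged 10 weeks, with 12 rats in each of 4 groups. Sepsis was produced by cecal ligation and puncture, in which the cecum is tied off and pierced so that gut contents leak into the abdomen, and controls had a sham operation in which the cecum was only lifted out and put back. Rats of the isoflurane groups breathed isoflurane gas from induction to the end, whereas ketamine and xylazine put the propofol rats to sleep before a propofol infusion took over, so the anesthetic cannot be told apart from the induction drugs. Livers were frozen 8 h after the abdomen was opened, with every rat under anesthesia throughout, and no group went without an anesthetic. Each library was made from the pooled liver tissue of 3 rats, which gave 4 libraries in each of Isoflurane-Sepsis (libraries 1 to 4), Isoflurane-Control (5 to 8), Propofol-Sepsis (9 to 12) and Propofol-Control (13 to 16). The spread between libraries is thus a spread between pools of rats, and the strain, sex and age were the same in all groups.

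The libraries held between 14199422 and 49937173 reads on genes. Levels are given in CPM, the library's reads on a gene brought to a common library total after scaling by TMM, edgeR's method for making libraries comparable. All 8 hepatocyte markers examined were detected, and their summed level was between 114700 and 132700 CPM in Isoflurane-Sepsis against 133300 to 143500 CPM in Isoflurane-Control, with no overlap, and between 90810 and 104900 CPM in Propofol-Sepsis against 95960 to 106600 CPM in Propofol-Control. Most of this sum was albumin (Alb), with means of 75540 CPM in Isoflurane-Sepsis and 89790 CPM in Isoflurane-Control. Its means were 59130 CPM in Propofol-Sepsis and 64830 CPM in Propofol-Control. With sepsis 1 of the 8 hepatocyte markers was called higher and 4 lower under isoflurane, and 1 higher and 2 lower under propofol. For this and the lists below, sepsis calls over all genes tested were 25.7% higher and 24.4% lower under isoflurane. Under propofol they were 20.4% higher and 21.7% lower. Markers of neutrophils and monocytes summed to between 17.5 and 25.17 CPM in the control groups, to between 36.53 and 116.6 CPM in Isoflurane-Sepsis and to between 36.28 and 53.57 CPM in Propofol-Sepsis, and 4 of the 6 that could be tested rose under each anesthetic. Of 8 macrophage markers 5 were called higher and 1 lower under isoflurane (367.7 to 492 CPM summed with sepsis, 323.7 to 400.8 CPM in controls), and 1 higher and 1 lower under propofol (323.3 to 396.7 and 367.3 to 420.6 CPM). Of the 2 lymphocyte markers that could be tested, both rose under isoflurane and 1 under propofol, and the list of 8 summed to 19.02 to 33.24 CPM against 10.13 to 12.22 CPM, and to 18.43 to 23.66 CPM against 13.49 to 16.67 CPM. Of 6 endothelial markers 4 fell under isoflurane (114.2 to 130.3 CPM summed with sepsis, 158.6 to 194.5 CPM in controls), and 1 rose and 2 fell under propofol (156.1 to 163.5 and 186.6 to 225.7 CPM). Of 8 markers of stellate cells and fibroblasts 4 rose and 1 fell under isoflurane (243.9 to 538.8 and 317.3 to 344.5 CPM), and 1 rose and 3 fell under propofol (247.1 to 269.7 and 292.1 to 310.7 CPM). Most of the sum for stellate cells and fibroblasts was Col3a1, at 158.4 to 411.9 CPM in Isoflurane-Sepsis and 242.3 to 275.8 CPM in Isoflurane-Control. It was at 180.4 to 190 CPM in Propofol-Sepsis and 213.6 to 243 CPM in Propofol-Control. No marker in the files was at 0 throughout a group. In whole liver, fewer cells of a type and less RNA per cell cannot be told apart, and the part of these markers' cell types in the results below was not tested.

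Of all reads on genes, those of the 10 acute-phase genes made up 10.16% to 12.34% in the 16 libraries. Their share was between 10.62% and 12.26% in Isoflurane-Sepsis against 10.47% to 10.77% in Isoflurane-Control. It was between 10.99% and 12.34% in Propofol-Sepsis against 10.16% to 10.47% in Propofol-Control, where the ranges did not overlap. Nearly all of this came from 9 of the genes, each with at least 11646 reads in every library, whereas A2m had only 14 to 80 reads per library.

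RefSeq promoters were at hand for 7 of the 10 genes, and the 250 bases before the start of transcription are shown for 5 of them. Orm1, Hpx and Cp are shown because they rose with sepsis under both anesthetics, and Serpina3n and Itih4 because their promoters carry the interleukin-6 response element core. The coordinates are those of the rat assembly GRCr8, at chr5:81788259-81788508 on the plus strand for Orm1, chr1:169352156-169352405 on the minus strand for Hpx, chr2:104368420-104368669 on the plus strand for Cp, chr6:129088142-129088391 on the plus strand for Serpina3n and chr16:6086735-6086984 on the plus strand for Itih4. Capitals mark the matches to 4 motifs searched on both strands, namely the interleukin-6 response element core CTGGGAA, the STAT motif TTCNNNGAA, the C/EBP motif TTNNGNAA and the kB motif. All sequences run 5′ to 3′ on the strand of the gene.
Orm1: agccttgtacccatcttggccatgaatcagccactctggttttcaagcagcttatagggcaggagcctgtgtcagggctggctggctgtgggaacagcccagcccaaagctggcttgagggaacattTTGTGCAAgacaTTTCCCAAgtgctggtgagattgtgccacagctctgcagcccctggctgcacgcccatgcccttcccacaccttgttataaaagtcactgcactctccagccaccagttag
Hpx: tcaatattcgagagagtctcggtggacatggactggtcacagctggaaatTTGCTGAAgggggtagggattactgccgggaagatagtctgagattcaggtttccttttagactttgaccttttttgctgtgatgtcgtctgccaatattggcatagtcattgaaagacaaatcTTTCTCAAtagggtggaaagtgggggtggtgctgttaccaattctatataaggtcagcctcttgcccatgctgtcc
Cp: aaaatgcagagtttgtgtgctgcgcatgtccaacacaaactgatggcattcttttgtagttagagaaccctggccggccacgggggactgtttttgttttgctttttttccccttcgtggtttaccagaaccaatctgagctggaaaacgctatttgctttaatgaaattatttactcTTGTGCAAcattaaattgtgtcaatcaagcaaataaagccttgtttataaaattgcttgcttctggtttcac
Serpina3n: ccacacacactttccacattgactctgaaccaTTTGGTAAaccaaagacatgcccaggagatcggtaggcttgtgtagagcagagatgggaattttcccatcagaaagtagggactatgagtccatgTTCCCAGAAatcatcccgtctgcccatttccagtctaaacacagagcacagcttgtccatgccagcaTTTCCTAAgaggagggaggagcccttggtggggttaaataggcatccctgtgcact
Itih4: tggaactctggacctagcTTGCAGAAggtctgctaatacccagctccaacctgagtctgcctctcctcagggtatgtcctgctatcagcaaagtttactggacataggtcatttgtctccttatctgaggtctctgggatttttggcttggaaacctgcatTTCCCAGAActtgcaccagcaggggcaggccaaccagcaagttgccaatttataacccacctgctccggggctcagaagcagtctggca

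Serpina3n held TTCCCAG, the reverse complement of the interleukin-6 response element core, from 123 to 117 bases before the start, and Itih4 held it from 89 to 83 bases before. In both genes the match lay inside a STAT match, TTCCCAGAA, so that the motifs share bases. C/EBP matches were found in Orm1 (2), Hpx (2), Crp (2), Serpina3n (2), Itih4 (1) and Cp (1), and TTGTGCAA stood both in Orm1, from 123 to 116 bases before the start, and in Cp, from 72 to 65. Of 33469 rat promoters of the same length, 9.56% held the interleukin-6 core, 7.67% the STAT motif, 37.2% the C/EBP motif and 6.33% the kB motif. The matches are a description of the letters and show no binding.

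Sepsis raised 4 of the 10 genes under isoflurane and 7 under propofol. Lbp, Orm1, Hpx and Cp passed the test under both anesthetics, and A2m, Hp and Serpina3n passed it under propofol. Crp, Itih3 and Itih4 did not pass under either anesthetic, and no member fell. Here a gene was called where the adjusted p of edgeR's quasi-likelihood test was below 0.05, in a fit across 10361 genes under isoflurane and 10348 under propofol. Of all genes tested, 25.7% were called higher and 24.4% lower with sepsis under isoflurane, and 20.4% higher and 21.7% lower under propofol. Every septic library lay above every control library for 24.3% of all genes tested under isoflurane and 21.2% under propofol. The median log2 fold change of the 10 genes was 0.19 under isoflurane, where that of all genes was 0.006, and 0.27 under propofol, where that of all genes was -0.002. With library totals in place of TMM, 4 genes were called under isoflurane and 6 under propofol, where the share of all calls that were higher went from 48.4% to 38.3%.

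**Figure D1:**
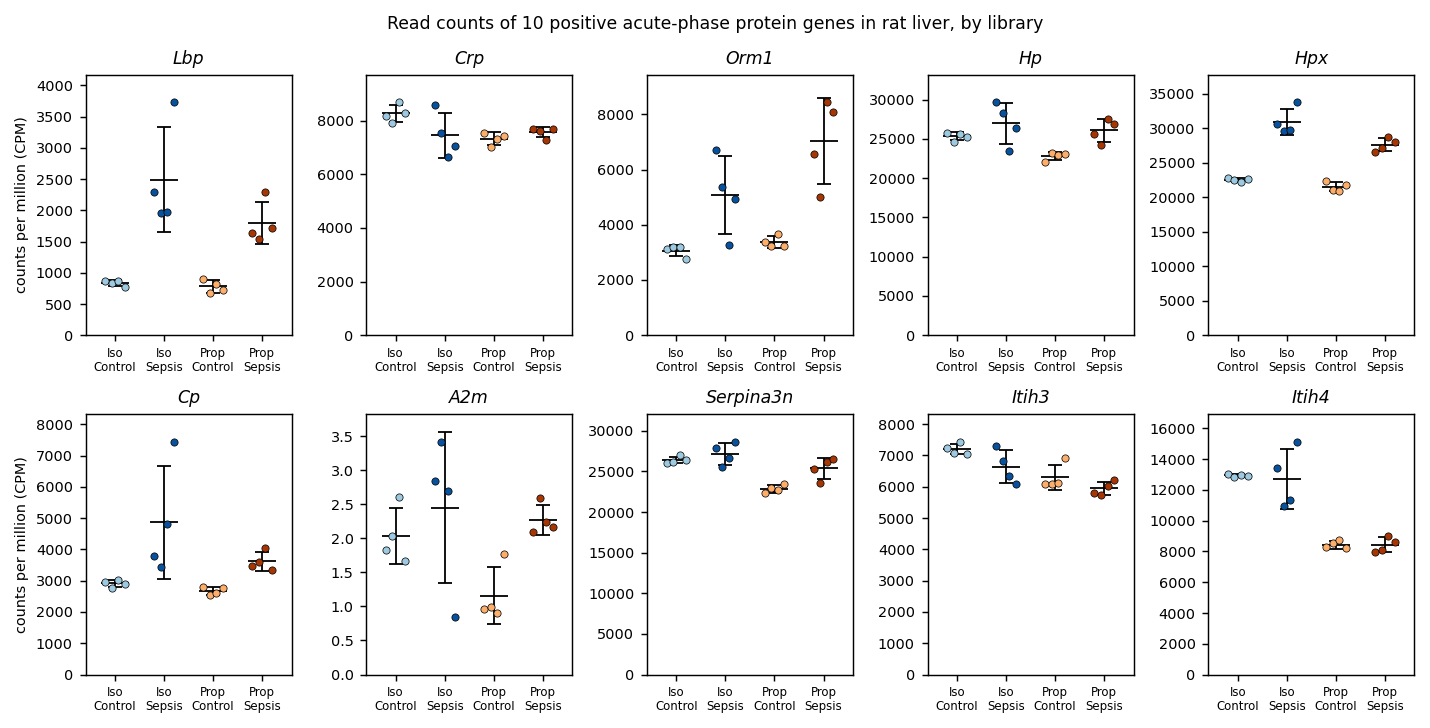
Level of each of the 10 acute-phase genes in CPM (vertical axis from 0, its range set for each gene) in the 4 groups, with 1 point per library, a dash at the mean of 4 libraries and bars of 1 SD. Lbp, Orm1, Hpx and Cp lay above the controls in every septic library under both anesthetics, Itih4 lay higher under isoflurane with and without sepsis, and A2m was near 0.8 to 3.4 CPM throughout. Of all genes tested, 24.3% lay above the controls in every septic library under isoflurane and 21.2% under propofol.

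**Figure D2:**
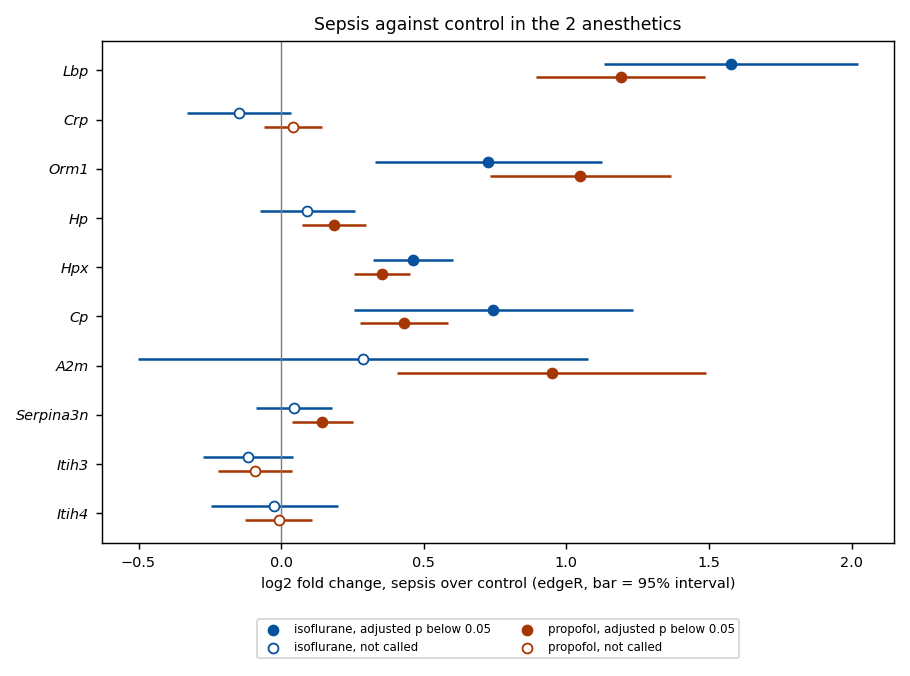
Log2 fold change of sepsis over control for the 10 genes under isoflurane (blue) and propofol (brown), with 95% intervals as bars and filled points where the adjusted p was below 0.05. Lbp lay farthest to the right under both anesthetics, at 1.58 and 1.19, and the intervals of Crp, Itih3 and Itih4 spanned 0 under both.

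Lbp encodes the lipopolysaccharide-binding protein, which hands bacterial lipopolysaccharide to Cd14 and the toll-like receptor complex. It stood at 2293, 1963, 1969 and 3727 CPM in Isoflurane-Sepsis libraries 1 to 4, against 873, 834, 861 and 765 CPM in Isoflurane-Control libraries 5 to 8. Under propofol it stood at 1630.0, 1548, 2291 and 1714 CPM with sepsis, against 906, 678, 823 and 729 CPM in controls. The groups did not overlap under either anesthetic, and library 4 was the highest of all. The log2 fold change was 1.58 ± 0.197 (SE, n = 4 libraries per group, 2.99-fold, adjusted p = 0.000379) under isoflurane and 1.19 ± 0.133 (2.28-fold, adjusted p = 0.000165) under propofol.

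Crp encodes C-reactive protein, a pentraxin that binds phosphocholine on bacteria and dying cells and is plentiful in rat plasma even at rest. Its level was 7460 ± 837 CPM (SD, n = 4) in Isoflurane-Sepsis and 8270 ± 311 CPM in Isoflurane-Control, and 7574 ± 199 CPM in Propofol-Sepsis and 7323 ± 235 CPM in Propofol-Control. The groups overlapped under both anesthetics. Its log2 fold change was -0.15 (95% interval -0.33 to 0.04) under isoflurane and 0.04 (-0.06 to 0.14) under propofol. Library 1, the highest of its group at 8597 CPM, decided the first of these, since without it Crp was called lower at -0.22 (adjusted p = 0.0316).

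Orm1 encodes orosomucoid, also named alpha-1-acid glycoprotein, a carrier of basic drugs and steroids. It stood at 6693, 5384, 3275 and 4940 CPM in the Isoflurane-Sepsis libraries and at 3113, 3183, 3177 and 2770 CPM in the controls. Under propofol it stood at 6548, 5022, 8427 and 8080 CPM with sepsis and at 3377, 3219, 3682 and 3232 CPM in controls. Library 3 lay just above its controls, and the other septic libraries stood well clear of them. The log2 fold change was 0.73 ± 0.177 (1.66-fold, adjusted p = 0.0087) under isoflurane and 1.05 ± 0.142 (2.07-fold, adjusted p = 0.000413) under propofol.

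Hp, Hpx and Cp encode the plasma proteins that hold free hemoglobin, heme and copper. Hpx, the heme carrier hemopexin, stood at 30630, 29630, 29750 and 33710 CPM in Isoflurane-Sepsis and at 22720, 22410, 22200 and 22580 CPM in Isoflurane-Control. Under propofol it stood at 26560, 27170, 28780 and 27960 CPM with sepsis and at 22330, 21050, 20870 and 21800 CPM in controls. The septic and control ranges did not overlap, and the rise was small but even, at a log2 fold change of 0.46 ± 0.0617 (1.38-fold, adjusted p = 0.000492) and of 0.35 ± 0.0438 (1.28-fold, adjusted p = 0.000265) in turn.

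Cp, the copper oxidase ceruloplasmin, was uneven among the septic libraries. It stood at 3780, 3451, 4810 and 7443 CPM in Isoflurane-Sepsis and at 2969, 2781, 3028 and 2884 CPM in the controls, with library 4 again the highest. In Propofol-Sepsis it stood at 3470, 3591, 4058 and 3352 CPM, against 2785, 2528, 2609 and 2764 CPM in Propofol-Control. The groups did not overlap, and the log2 fold change was 0.74 ± 0.217 (1.67-fold, adjusted p = 0.0191) under isoflurane and 0.43 ± 0.0684 (1.35-fold, adjusted p = 0.000962) under propofol. Without library 4 the isoflurane value was 0.47, and without control library 6 it was 0.72 and no longer called (adjusted p = 0.0516). In a fit of all 16 libraries the propofol value, 0.44, was not called (adjusted p = 0.0524).

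Hp, which encodes the hemoglobin-binding haptoglobin, was at 26970 ± 2667 CPM (SD, n = 4) in Isoflurane-Sepsis and 25320 ± 517 CPM in Isoflurane-Control, with overlapping libraries and a log2 fold change of 0.09 (95% interval -0.07 to 0.26). Under propofol it rose from 22840 ± 535 to 26090 ± 1477 CPM with no overlap, a log2 fold change of 0.18 ± 0.0497 (1.14-fold, adjusted p = 0.0144).

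A2m, Serpina3n, Itih3 and Itih4 belong to families of protease inhibitors and their partners. A2m encodes alpha-2-macroglobulin, which traps proteases of many kinds and in the rat is the best known protein of the acute phase. It had 57, 53, 52 and 14 reads in the Isoflurane-Sepsis libraries, or 2.85, 3.42, 2.69 and 0.846 CPM, and 39, 41, 56 and 80 reads in Isoflurane-Control, or 1.83, 2.03, 2.60 and 1.67 CPM. In Propofol-Sepsis it had 37, 53, 42 and 71 reads, or 2.09, 2.59, 2.25 and 2.16 CPM, and in Propofol-Control 15, 17, 19 and 37 reads, or 0.966, 0.990, 0.905 and 1.78 CPM. Septic library 4 was the lowest of all 16 libraries for A2m, although it was the highest for Lbp and Cp.

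The log2 fold change of A2m was 0.95 ± 0.242 (1.93-fold, adjusted p = 0.0113) under propofol, with no overlap between the groups. Under isoflurane it was 0.29 ± 0.350 (95% interval -0.50 to 1.08, adjusted p = 0.518), and without library 4 it was 0.57 and called (adjusted p = 0.0346). Reads of A2m could be shared with its near relatives, among them Pzp with 1323334 to 2205199 reads per group, and how reads matching several genes were assigned is not known here.

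Serpina3n encodes a serine protease inhibitor of the antichymotrypsin type. It was at 27200 ± 1367 CPM in Isoflurane-Sepsis and 26410 ± 417 CPM in Isoflurane-Control, a log2 fold change of 0.04 (95% interval -0.09 to 0.18). In Propofol-Sepsis it was at 25350, 23580, 26110 and 26510 CPM, against 22350, 22930, 22670 and 23490 CPM in Propofol-Control. The lowest septic library lay only just above the highest control, and the log2 fold change was 0.14 ± 0.0477 (1.11-fold, adjusted p = 0.0342). That call was lost when any 1 of libraries 9, 11, 12, 13, 14 or 15 was left out, with adjusted p between 0.059 and 0.107, and Serpina3n also has close paralogs that could share its reads.

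Itih3 and Itih4 encode heavy chains of the inter-alpha-trypsin inhibitor family, which bind hyaluronan or circulate in plasma. Itih3 was at 6636 ± 530 CPM (SD, n = 4) in Isoflurane-Sepsis and 7207 ± 175 CPM in Isoflurane-Control, and its log2 fold change was -0.12 (95% interval -0.28 to 0.04). Under propofol it was at 5947 ± 217 CPM with sepsis and 6307 ± 403 CPM without, a log2 fold change of -0.09 (-0.22 to 0.04). Itih4 had log2 fold changes of -0.02 (-0.25 to 0.20) and -0.01 (-0.13 to 0.11), and its sign turned when single libraries were left out.

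Whether the 10 genes responded to sepsis more under one anesthetic than the other was asked of all 16 libraries together, by the interaction term, positive where the response under isoflurane was the larger. None of the 10 genes was called, none had an unadjusted p below 0.05 in edgeR, and DESeq2 also called 0. Of 10621 genes tested, 1.66% were called higher and 1.06% lower, and 2452 had an unadjusted p below 0.05 in edgeR. The interaction was 0.38 ± 0.253 on the log2 scale for Lbp (95% interval -0.16 to 0.92), 0.30 ± 0.239 for Cp (-0.21 to 0.81), -0.33 ± 0.249 for Orm1 (-0.86 to 0.20) and -0.68 ± 0.452 for A2m (-1.64 to 0.29). A larger rise of Lbp or Cp under isoflurane, or of Orm1 or A2m under propofol, was not detected, and these intervals are wide. The narrowest were those of Hpx, at 0.10 (-0.05 to 0.25), and Serpina3n, at -0.11 (-0.26 to 0.04). Crp had the lowest unadjusted p, 0.0557, at -0.20, and without library 1 it was called at -0.27 (adjusted p = 0.0267).

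The levels of the genes were also compared between the anesthetics at the same surgery. These comparisons use the same libraries as those above, and the deposited files of isoflurane and propofol libraries carry different prefixes in their names, so whatever those mark cannot be told apart from the anesthetic. In control livers 6 of the 10 genes were higher under isoflurane than under propofol and none was lower, where 21.6% of 10314 genes tested were called higher and 21.7% lower. In septic livers 1 of the 10, Itih4, was higher and none was lower, where 10.6% of 10272 genes were called higher and 8.66% lower. Every isoflurane library lay above every propofol library for 20.4% of genes tested in control livers and 12.9% in septic livers. Every isoflurane library lay below for 20% and 12.6% in turn. The number of genes called in septic livers, 1982 in both directions, ranged from 249 without library 12 to 2867 without library 1.

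Itih4 was the gene that stood apart. It was at 13060, 12830, 12980 and 12880 CPM in Isoflurane-Control and at 8288, 8531, 8745 and 8194 CPM in Propofol-Control, and at 13420, 10950, 11360 and 15130 CPM in Isoflurane-Sepsis and 7996, 8077, 9034 and 8610 CPM in Propofol-Sepsis. Every isoflurane library lay above every propofol library, and the Isoflurane-Control libraries had a coefficient of variation of 0.770%. The log2 difference was 0.62 ± 0.038 (1.53-fold, adjusted p = 3.21e-06) in controls, where Itih4 ranked 19 of 10314 genes by p, and 0.59 ± 0.110 (1.51-fold, adjusted p = 0.0146) in septic livers. The second call was lost without library 9 (adjusted p = 0.0551) or without library 12 (0.0548).

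The other genes called higher in isoflurane controls differed by less. Serpina3n was 0.21 ± 0.0367 higher on the log2 scale (adjusted p = 0.00119), Itih3 0.19 ± 0.0513 (0.0114), Crp 0.18 ± 0.0449 (0.0093) and Hp 0.15 ± 0.0374 (0.00863). The libraries of each of these did not overlap between the anesthetics. A2m was 0.76 ± 0.244 higher (adjusted p = 0.0267) with overlapping libraries, and its call was lost when any 1 of libraries 6, 7, 13, 14 or 15 was left out. In a fit of all 16 libraries the values were alike, and Hp (adjusted p = 0.101), Crp (0.0668) and A2m (0.0887) were not called. Orm1 lay lower in every isoflurane control, at -0.14 ± 0.0612, and was not called (adjusted p = 0.0835).

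These smaller differences depended on how the libraries were scaled. With library totals alone in place of TMM, the median of all genes moved from -0.0005 to -0.15 in control livers and from -0.01 to -0.16 in septic livers, and the share of calls that were higher under isoflurane went from 49.8% to 22.9% and from 55.1% to 21.4%. Itih4 was then still called higher in controls, Orm1 was called lower at -0.29 (adjusted p = 0.00345), and Serpina3n, Itih3, Crp, Hp and A2m were no longer called. All 8 hepatocyte markers, albumin (Alb) among them, were also called higher in isoflurane controls, with a median log2 difference of 0.44 and a summed level of 133300 to 143500 CPM against 95960 to 106600 CPM. The part of these markers in the difference of the 10 genes was not tested.

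**Figure D3:**
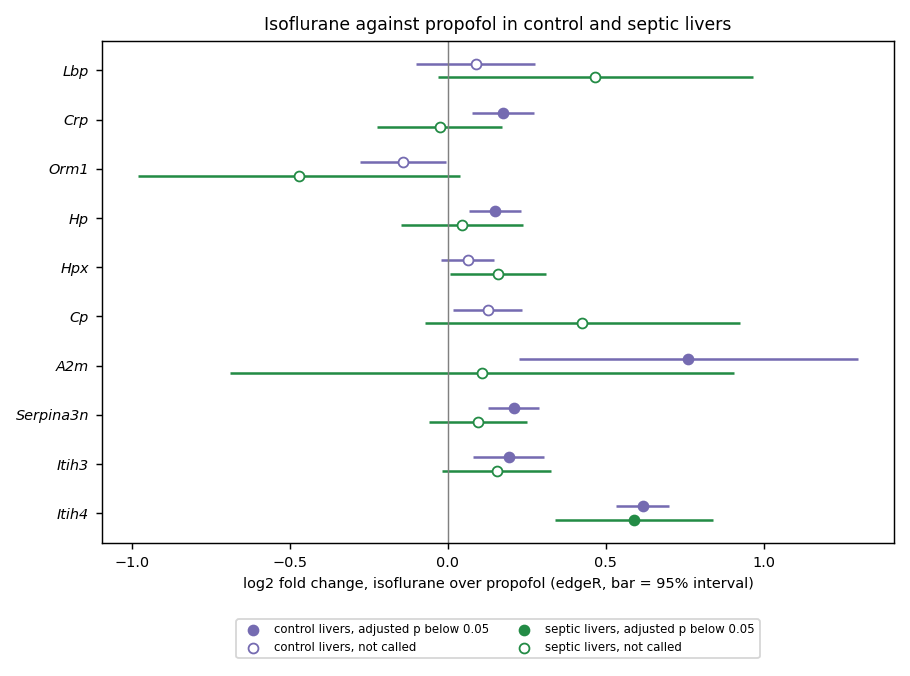
Log2 difference of isoflurane over propofol for the 10 genes in control livers (purple) and septic livers (green), with 95% intervals as bars and filled points where the adjusted p was below 0.05. Itih4 was called in both, at 0.62 and 0.59, while 5 more genes were called in control livers alone, a contrast between the comparisons that was not itself called in the interaction.

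In septic livers the levels were more scattered. Lbp was 0.47 ± 0.221 higher under isoflurane on the log2 scale (95% interval -0.03 to 0.97), Cp 0.43 ± 0.221 (-0.07 to 0.93), and Orm1 was at -0.47 ± 0.226 (-0.98 to 0.04), none of them called. Hpx was higher in every Isoflurane-Sepsis library than in every Propofol-Sepsis library, at 0.16 ± 0.0673, and was not called (adjusted p = 0.113). In a fit of all 16 libraries, 4 of the genes were called in septic livers, with Itih4, Lbp and Hpx higher and Orm1 lower under isoflurane.

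By the likeness of their pattern over the 16 libraries, Hp and Serpina3n were the closest pair of members, with a root mean square difference of 0.0791 between their centred log2 levels, and Crp and Itih3 were next at 0.092. A2m was far from every other member, its closest being Hp at 0.53. It has only 14 to 80 reads per library, and the part of these low counts in its distance was not tested. Among 6794 other genes, those closest to Lbp were Papss2 (0.213), Thbd (0.223) and Atp11a (0.231), and those closest to A2m were Rdh16 (0.297), Lgalsl (0.335) and Tmem150c (0.335).

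Other genes of the acute-phase pathway were counted as lists. Beside each list stand the shares of all genes called with sepsis. They were 25.7% higher and 24.4% lower under isoflurane, and 20.4% higher and 21.7% lower under propofol. Of 18 other positive acute-phase proteins tested, 11 rose and 1 fell with sepsis under isoflurane, and 10 rose and 1 fell under propofol. Their median log2 fold changes were 0.25 and 0.20, where those of all genes were 0.006 and -0.002. Lcn2, the iron-sequestering lipocalin, rose by 3.20 ± 0.189 under isoflurane (adjusted p = 1.82e-05) and 2.24 ± 0.305 under propofol (adjusted p = 0.000421). Cd14, the coreceptor that receives lipopolysaccharide from the Lbp protein, rose by 2.83 ± 0.324 (adjusted p = 0.00025) and 1.76 ± 0.214 (adjusted p = 0.000246). The fibrinogen chains Fga, Fgb and Fgg rose under both anesthetics by between 0.20 and 0.27, and Saa4 was the one that fell, at -0.52 and -0.64.

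The inducing cytokines had few reads. All 4 that passed the limit on low counts rose under isoflurane and all 3 under propofol. With no such limit or in a fit of all 16 libraries, 5 were called under propofol. Of all genes tested, 25.7% were called higher under isoflurane and 20.4% under propofol. Under isoflurane, Il6 and Tnf passed the limit through their septic libraries alone, with control means of 0.0566 and 0.0801 CPM. Only a rise could thus be called for them there. Il1b rose by 3.70 ± 0.311 on the log2 scale (adjusted p = 7.28e-05) under isoflurane and 2.35 ± 0.172 (adjusted p = 2.52e-05) under propofol. Il6, which encodes the main inducer of the response in hepatocytes, had 200 reads in Isoflurane-Sepsis and 7 in Isoflurane-Control, all libraries summed (log2 fold change 5.41 ± 0.617, adjusted p = 0.00025), and 66 and 3 reads under propofol, where it did not pass the limit on low counts. Tnf had 100 and 9 reads under isoflurane and 231 and 50 under propofol.

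Of 8 receptors tested, 5 rose and 2 fell under isoflurane, and 2 rose and 1 fell under propofol. Of all genes, 25.7% were called higher and 24.4% lower under isoflurane, and 20.4% and 21.7% under propofol. Osmr, a receptor chain for oncostatin M, rose under both, by 1.16 ± 0.235 (adjusted p = 0.00378) and 0.63 ± 0.0984 (adjusted p = 0.000912), and so did Il6st, the signaling chain shared by the interleukin-6 family. Of 12 signal transducers and transcription factors, 8 rose and 2 fell under isoflurane, and 7 rose and 3 fell under propofol. Jak2, a Janus kinase, rose by 1.505 ± 0.0873 (adjusted p = 1.75e-05) and 1.76 ± 0.106 (adjusted p = 8.56e-06). Cebpd, a C/EBP factor, rose by 1.59 ± 0.131 and 1.93 ± 0.286, and Hnf4a, a factor that keeps up hepatocyte genes, was at -1.06 and -0.73, both called. Stat3 was called higher under propofol, at 0.38, and was at 0.07 and not called under isoflurane, where the libraries did not overlap. It stood at 980 CPM with sepsis and 935 CPM without under isoflurane, and at 984 and 751 CPM under propofol. The interaction of Stat3 was not called.

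Of 10 relatives by family tested, 3 rose and 0 fell under isoflurane, where 25.7% of all genes were called higher and 24.4% lower, and 2 rose and 2 fell under propofol, where 20.4% were called higher and 21.7% lower. Ptx3, the long pentraxin related to Crp, had 517 reads in Isoflurane-Sepsis against 18 in controls, and 443 against 8 under propofol. Its log2 fold changes were 5.45 ± 0.398 (adjusted p = 4.1e-05) and 5.42 ± 0.432 (adjusted p = 3.81e-05). Ptx3 passed the limit on low counts through its septic libraries alone, with control means of 0.160 and 0.109 CPM. Only a rise could thus be called for it. Serpina3m was called higher under both, at 0.26 (adjusted p = 0.036) and 0.64 (adjusted p = 0.0117). The isoflurane call of Serpina3m was lost with library totals (adjusted p = 0.0979), with no limit on low counts (0.0802), in a fit of all 16 libraries (0.139) and without any 1 of libraries 1, 3, 5, 6, 7 or 8 (0.059 to 0.0999). Itih1 and Ambp, which encode parts of inter-alpha-trypsin inhibitor, were called lower under propofol, at -0.24 and -0.15. The call of Ambp was lost without any 1 of libraries 9, 10, 11, 12, 14 or 16 (adjusted p between 0.0576 and 0.0808).

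**Figure D4:**
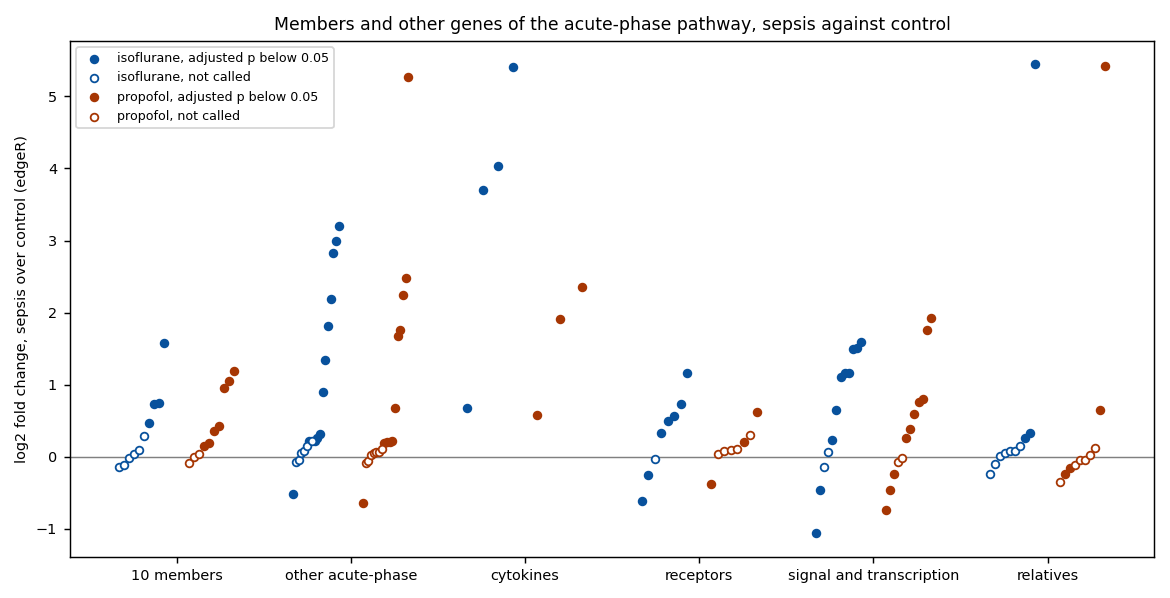
Log2 fold change of sepsis over control for the 10 members and 5 lists of related genes, with 1 point per tested gene, isoflurane in blue and propofol in brown, and filled points where the adjusted p was below 0.05. The members lay between -0.15 and 1.58, while single cytokines and relatives such as Il6 and Ptx3 lay above 5. Il6 (tested under isoflurane) and Ptx3 passed the limit on low counts through their septic libraries alone.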

How the data were processed

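Raw counts of reads on 17055 gene symbols, 1 set per library, were deposited by the authors without normalization. The submitters' processing notes name the aligner STAR and the genome build rn5. No source used here gives the STAR version, the counting program or the annotation. A stranded kit and poly(A) selection were used. Reads outside genes (21.61% to 25.39% of all reads) and ambiguous reads (1.074% to 1.351%) were left out.

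Counts were tested with edgeR 4.0.16 in R 4.3.3 (glmQLFit and glmQLFTest, TMM, filterByExpr at min.count 10 and min.total.count 15), 4 libraries against 4, with Benjamini-Hochberg adjustment over all genes tested. The interaction used all 16 libraries. The SE was the log2 fold change divided by the square root of F. Alternatives were RLE factors, library totals, no limit on low counts, DESeq2 1.42.0, 1 fit of all libraries, thinned counts, a limit of 0.01 on the adjusted p, and leaving out each library singly. Exact two-sided permutation tests of 4 libraries against 4 cannot go below 0.0286, the value of every member whose groups did not overlap. The code was tested on simulated data.

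The 10 genes were taken by symbol, and the other lists were written by hand. The members and lists were chosen with earlier results of these data known. Of the lists, every gene called in the interaction is named, and otherwise at most the 4 with the largest change per sepsis comparison were to be named. A gene under this rule is not reported here and stays in the counts. Fga, Fgb, Fgg, Saa4, Hnf4a, Stat3, Alb and Col3a1 were named after their values were seen. For likeness of pattern, only genes whose mean log2 CPM reached 3 were ranked. Promoters are from RefSeq (GRCr8), while the counts rest on rn5, and A2m, Hp and Lbp had no entry.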

Additional observations from a re-analysis of the deposited data

Results flagged for a closer look

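Within a group of 4 libraries, 3 of 40 sets of values had 1 library far from the others by Dixon's test, where chance flags about 1 in 20. A2m was at 1.78 CPM in Propofol-Control library 16 and between 0.905 and 0.990 CPM in the other 3 libraries. Itih3 was at 6911 CPM in the same library 16 and between 6080 and 6134 CPM in the other 3. Orm1 was at 2770 CPM in Isoflurane-Control library 8, the deepest library, and between 3113 and 3183 CPM in the other 3.

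None of the 10 genes was called in the interaction, but 5 genes of the pathway lists and 2 cell type markers were, given here as isoflurane minus propofol on the log2 scale. They were 1 of 18 other acute-phase proteins tested, 1 of 5 cytokines, 1 of 8 receptors and 2 of 12 signal transducers and transcription factors. Of the markers, they were 1 of 8 for macrophages and 1 of 8 for stellate cells and fibroblasts. The relatives and the other marker lists had none. Of all genes tested, 1.66% were called higher and 1.06% lower. Cebpa, a C/EBP factor, was at 1.22 (adjusted p = 0.0366), with 101.7 ± 41.5 CPM in Isoflurane-Sepsis against 45.5 ± 6.24 CPM in its controls, and 52.4 ± 6.91 CPM in Propofol-Sepsis against 54.7 ± 3.32 CPM. Jak1, a Janus kinase, was at 0.46 (adjusted p = 0.022), called higher with sepsis under isoflurane (0.24) and lower under propofol (-0.23). Tnf was at 2.12 (adjusted p = 0.0403) on 9 to 231 reads per group, with 1.42 CPM in Isoflurane-Sepsis against 0.0801 CPM in its controls, and 2.50 CPM in Propofol-Sepsis against 0.656 CPM. Il1rn, the interleukin-1 receptor antagonist, was at -0.67 (adjusted p = 0.0387), with rises of 1.81 under isoflurane and 2.47 under propofol, and Il1r1, the interleukin-1 receptor, was at -0.70 (adjusted p = 0.0455), called lower under isoflurane (-0.61) and at 0.09 under propofol. The markers were Acta2, the smooth muscle actin of activated stellate cells, at 0.96 (adjusted p = 0.0183), which was called higher under isoflurane (1.13) and was at 0.16 under propofol, and Cd68, a macrophage protein, at 0.56 (adjusted p = 0.0473), called higher under isoflurane (0.44) and at -0.12 under propofol. With each of the 16 libraries left out in turn, the call was lost in 0 cases for Acta2, 2 for Jak1, 9 for Il1rn, 10 for Cebpa, 11 for Tnf, 13 for Il1r1 and 13 for Cd68, with adjusted p up to 0.0971.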

How the results depend on the processing

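No paired analysis was possible because the library numbers run from 1 to 16 and no number is shared between groups.

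At an adjusted p below 0.01 the number of the 10 genes called was 4 for sepsis under propofol and 0 in septic livers, as fewer genes pass a stricter limit. With library totals alone it was 2 in control livers, with all 16 libraries in 1 fit it was 3 in control and 4 in septic livers, and with DESeq2 it was 2 in septic livers. The cause was not tested. With 1 library left out it ranged from 3 to 5 under isoflurane, 6 to 7 under propofol, 5 to 6 in control livers, 0 to 1 in septic livers (0 without library 9 or 12) and 0 to 1 in the interaction (1 without library 1). Calls over all genes in the interaction went from 289 to 1615 without library 1, to 54 without library 12 and to between 60 and 138 without library 3, 5, 6, 7, 8, 9, 11, 13, 14 or 15. In septic livers they went from 1982 to 249, 289 and 314 without library 12, 9 or 11, and to 1253 and 842 without library 2 or 3. Other counts over all genes that moved by more than 1.5 times were 850 with DESeq2, 168 with no limit on low counts and 187 with thinned counts in the interaction, and with all libraries in 1 fit 2793 in control livers (4468 in its own fit) and 4099 in septic livers. At an adjusted p below 0.01 they were 3200 for isoflurane (5183 at 0.05), 2628 for propofol (4353), 2815 in control livers, 121 in septic livers and 9 in the interaction. The relatives called under isoflurane went from 3 to 1 with library totals, with no limit on low counts, at an adjusted p below 0.01 and without library 1, 3, 5, 6 or 8. The receptors called under isoflurane went from 7 to 4 without library 5 or 6 and to 3 at an adjusted p below 0.01, and the relatives under propofol from 4 to 2 at 0.01.

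No member that turned its sign was called in either setting. With library totals these were Serpina3n under isoflurane (-0.0234), Crp under propofol (-0.0130), Hpx (-0.0817), Lbp (-0.0574) and Cp (-0.0192) in control livers, and A2m (-0.0349), Hp (-0.101) and Serpina3n (-0.0498) in septic livers. The interaction of Ptx3 was -0.0015 with library totals, -0.0013 with no limit on low counts and -0.0073 with DESeq2. With 1 library left out, Itih4 ranged from -0.114 to 0.0346 under isoflurane, from -0.0404 to 0.0177 under propofol and from -0.117 to 0.0430 in the interaction, where Itih3 ranged from -0.0819 to 0.0050, Il1a from -0.109 to 0.193 and Ptx3 from -0.960 to 0.342. In septic livers A2m ranged from -0.0782 to 0.389, Hp from -0.0031 to 0.107 and Crp from -0.0999 to 0.0267. Tnfrsf1a ranged from -0.0996 to 0.0379 under isoflurane, and Nr3c1 from -0.0114 to 0.191 and Cebpa from -0.144 to 0.0063 under propofol. A2m rests on 14 to 80 reads per library, and every other member on at least 11646.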
